A study of Mus musculus with 8 samples.

Results

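The SLC25 family of mitochondrial carriers was examined in mammary glands of mice with floxed Sox9 and a mammary Cre recombinase. Its members were all genes whose symbol is Slc25a followed by a number and whose probe sets the array annotation ties to a single symbol. This gave 46 genes, read by 50 probe sets, out of 19938 genes tested. Where a gene had more than 1 probe set (3 members), the one with the highest mean intensity stood for it.

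SLC25 carriers are small proteins, most of them in the inner mitochondrial membrane, that exchange metabolites between the cytosol and the matrix. They bring in ADP and phosphate for ATP synthesis, export citrate for fat synthesis, run the malate-aspartate shuttle, and import carnitine esters, amino acids, cofactors, nucleotides and iron. In a pubertal mammary gland most of the tissue by volume is a fat pad, in which growing ducts are embedded, and adipocytes use citrate export for fatty acid synthesis and the carnitine carrier for fatty acid oxidation.

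Tissue came from the fourth mammary gland, close to its lymph nodes, of untreated virgin females of 5 weeks on a C57BL/6 X FVB background. All mice carried MMTV-Cre, a recombinase under the promoter of mouse mammary tumour virus that drives expression in mammary epithelial cells. The Sox9 alleles of 4 mice were both floxed (MMTV-Cre;Sox9 flox/flox), and 4 control mice had 1 floxed and 1 wild-type allele (MMTV-Cre;Sox9 flox/+), so that controls can also lose a Sox9 copy. Every gland had a separate Affymetrix Gene 1.0 ST array, and with 8 arrays their number sets the precision. The RNA is from whole tissue, so fewer cells of a type and less RNA per cell cannot be told apart.

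Values are array intensities after quantile normalization, in arbitrary units on a linear scale. Since probe sets differ in brightness for the same amount of RNA, intensities were compared between glands and not between genes. Each difference is the flox/flox mean less the flox/+ mean of log2(intensity + 16), a scale that understates changes of dim genes, and is given with limma's standard error (SE). A gene was called when limma's p, adjusted by Benjamini-Hochberg over all 19938 genes, was under 0.05.

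Sox9 itself read 424, 448, 401 and 366 in the flox/+ glands and 298, 356, 287 and 351 in the flox/flox glands (log2 -0.33 ± 0.09 SE, limma adjusted p = 0.256). Sox9 was thus not called, although every flox/flox gland read below every control, a separation found for 5.89% of all genes in either direction. Its unadjusted limma p was 0.00415, and a 2-sided exact permutation test gave p = 0.0286. Whether the Sox9 probe set lies in the floxed part of the gene is not stated in the labels. Mammary epithelium was present in all glands, with summed intensities of 7 epithelial markers of 7300.3 to 8294 in flox/+ and 7141 to 9248 in flox/flox, and so were white adipocyte markers (32753 to 37086 and 33219 to 38799, 7 genes). The flox/+ replicate 2 gland stood apart by its B and T cell markers, which summed to 2778 against 679 to 859 in the other glands. Without that gland 7 members instead of 9 reached the unadjusted p used next, against 9.42% of all genes.

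No SLC25 gene was called (limma, 0 of 46, against 0.0401% of all genes). At an unadjusted limma p under 0.05 there were 9 members (19.6%), against 10.3% of all genes. Each of the 9 was higher in the flox/flox glands, where the background in that direction is 4.80%, and 0 were lower, where it is 5.46%. They were Slc25a33, Slc25a32, Slc25a20, Slc25a16, Slc25a48, Slc25a39, Slc25a35, Slc25a44 and Slc25a4. Without flox/+ replicate 3 the count was 4 of 46 (Slc25a20, Slc25a32, Slc25a33 and Slc25a39), a share near the 8.20% of all genes. The count was 6 without flox/flox replicate 2 (8.66% of all genes) and 6 without flox/flox replicate 3 (10.3% of all genes). Flox/+ replicate 3 had the lowest value of the 8 for 6 of the 9 genes, and flox/flox replicate 2 had the highest for 6.

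Most members lay slightly on the flox/flox side. The difference was above 0 for 37 of 46 members (80.4%), against 47.4% of all genes, with a median of 0.08 against -0.01. With median centring in place of quantile normalization the shares were 38 of 46 members and 54.5% of all genes. The range ran from -0.16 for Slc25a31 to 0.57 for Slc25a33. Genotypes separated without overlap for 3 members (6.52%), a share near the 5.89% of all genes. These 3, Slc25a33, Slc25a16 and Slc25a4, were all higher in flox/flox, where the background is 2.73%. The related lists below have the same backgrounds, with 4.80% of all genes higher and 5.46% lower at an unadjusted limma p under 0.05. The plot of differences by carrier role shows how narrow the range is for most genes.

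**Figure D1:**
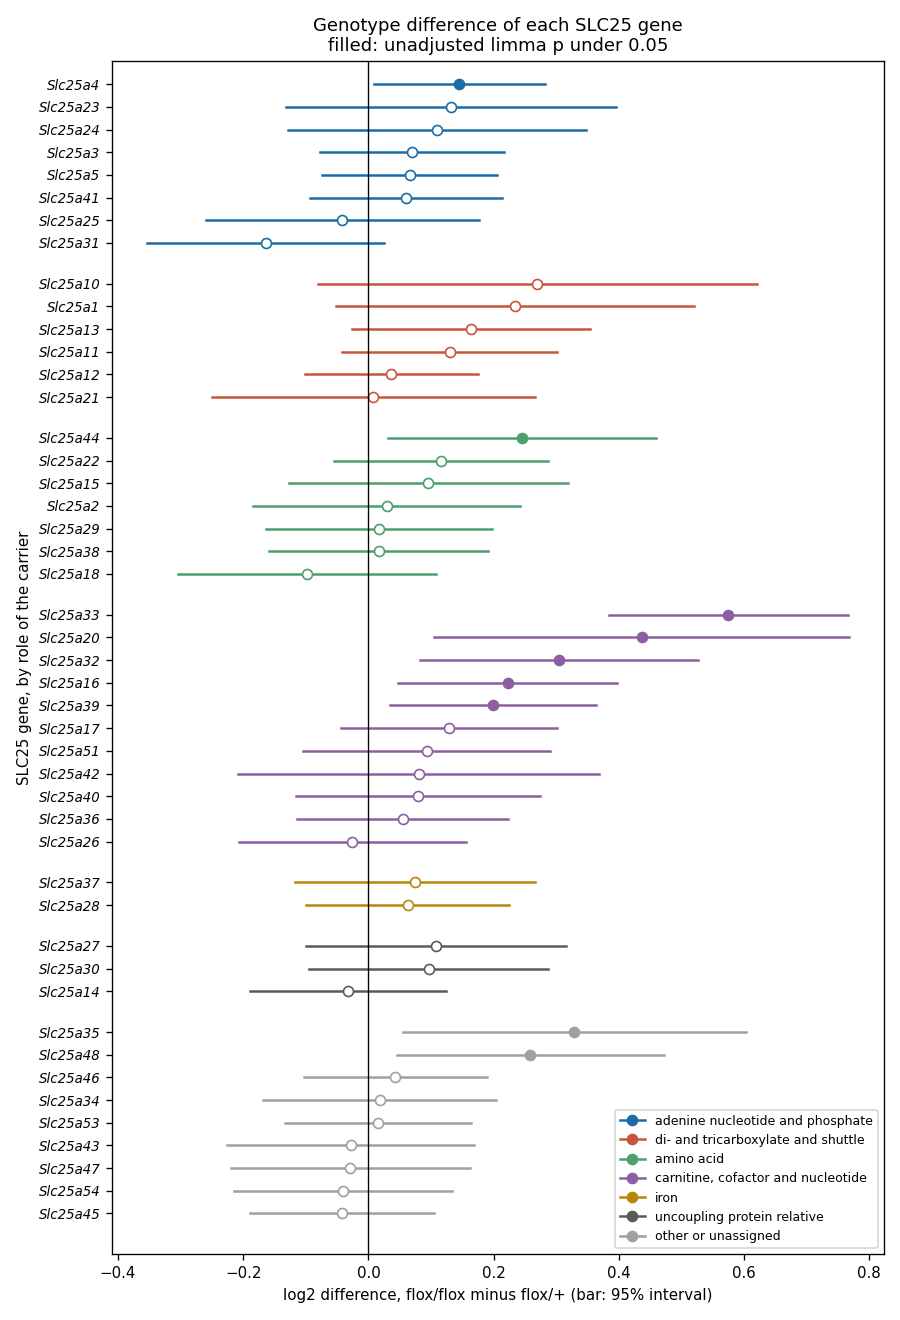
Log2 difference (flox/flox minus flox/+) of the 46 SLC25 genes, grouped by the role of the carrier, with limma's 95% interval as a bar from 4 glands per genotype; filled points have an unadjusted limma p under 0.05. The 9 filled points lie to the right of 0, and 5 of them belong to the carriers of carnitine, cofactors and nucleotides.

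The tilt was largest among the members with brighter probe sets. All genes were divided into 3 classes of 6646 by mean level over the 8 arrays. In the brightest class, above an intensity of 323, all 23 members had a difference above 0, against 53.4% of the genes of that class, with a median of 0.13 against 0.01. In the middle class 9 of 14 members were above 0 (47.1% of its genes), and in the dimmest class 5 of 9 (41.7% of its genes). The member medians were 0.05 and 0.01, against -0.01 and -0.02 for all genes of these classes. The count in the brightest class was 22 or 23 of 23 in every alternative setting, 22 when a gene's probe sets were averaged and when flox/+ replicate 1, flox/+ replicate 3 or flox/flox replicate 2 was left out. The values used hold no detection calls, so a dim probe set cannot be told from background.

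**Figure D2:**
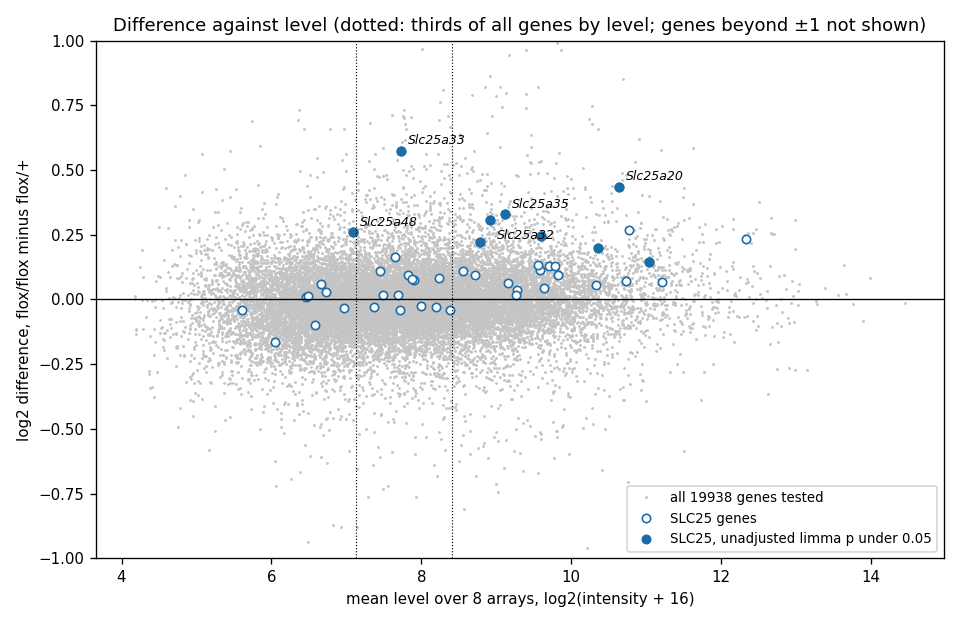
Log2 difference (flox/flox minus flox/+, vertical axis) against the mean of log2(intensity + 16) over 8 arrays (horizontal axis) for the 19938 genes tested in grey, those beyond ±1 not drawn, and the SLC25 genes in blue (filled: unadjusted limma p under 0.05). To the right of the second dotted line, the start of the brightest class, all 23 SLC25 genes lie above 0, while Slc25a33 stands out in the middle class.

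Slc25a33, which carries pyrimidine nucleotides into the matrix for mitochondrial DNA and RNA synthesis, had the largest difference of the family. It read 168, 156, 147 and 161 in the flox/+ glands and 238, 289, 227 and 224 in the flox/flox glands (probe set 10518726, chromosome 4). All 4 flox/flox glands lay above the highest control, and the controls spanned a narrow range. Means were 158 ± 8.92 and 245 ± 30.4 (SD, n = 4), a 1.49-fold difference (log2 0.57 ± 0.09 SE, 95% interval 0.38 to 0.77). Its limma p of 4.15e-05 became 0.0636 after adjustment, just short of the threshold, and a 2-sided exact permutation test gave 0.0286, the smallest p that the 70 assignments allow. With eBayes trend and robust options, or with an offset of 64, the adjusted p was 0.0389 and 0.0499, and over all alternatives it ran from 0.0389 to 0.256, the latter with the unnamed probe sets tested too. The unadjusted p stayed under 0.05 in 18 of 18 alternatives.

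The 250 bases upstream of the RefSeq start of Slc25a33 (GRCm38.p6, chr4:149774268-149774517, minus strand) are shown because this gene differed most. Capitals mark a CACGTG E-box, the core sequence bound by factors such as MYC and USF, which begins 8 bases before the start.
Slc25a33: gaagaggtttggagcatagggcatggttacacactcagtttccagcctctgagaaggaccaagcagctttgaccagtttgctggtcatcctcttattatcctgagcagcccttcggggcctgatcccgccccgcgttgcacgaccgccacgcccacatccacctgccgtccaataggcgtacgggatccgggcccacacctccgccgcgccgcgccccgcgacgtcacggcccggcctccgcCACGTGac
The same windows of RefSeq promoters matched 36 of the 46 members by symbol (46 windows, some genes having several starts). Searched on both strands, CACGTG was in 8 of these 46 windows (17.4%), belonging to Slc25a1, Slc25a13, Slc25a14, Slc25a15, Slc25a31, Slc25a33 and Slc25a36, against 6.02% of the 32851 windows of all genes. Member windows were also richer in G and C, with a median of 57.4% against 52.4%. Among these 7 genes Slc25a33 alone had an unadjusted limma p under 0.05. Slc25a32, Slc25a35 and Slc25a44 had no entry. The NRF1 motif, named for a regulator of nuclear genes for mitochondria, was in 4.35% of member windows (Slc25a3 and Slc25a31) and 3.74% of all. The letters TNAAGGTCA of the oestrogen-related receptor motif were in 0 member windows and 1.14% of all. Each of the windows printed holds 1 match to the motifs searched, and a match describes the sequence only.

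Slc25a36, the other pyrimidine nucleotide carrier, did not show the same pattern. Its brighter probe set (10595856) read 1249 ± 87.8 in flox/+ and 1298 ± 88.9 in flox/flox glands (SD, n = 4; log2 0.05 ± 0.08 SE), while its other probe set (10479979) read 1182 ± 51.6 and 1063 ± 101 (log2 -0.15 ± 0.08). The probe sets of Slc25a36 disagree in sign, and neither had an unadjusted limma p under 0.05.

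Slc25a20, the carnitine-acylcarnitine carrier that brings long-chain fatty acids into the matrix for oxidation, had the second largest difference. It read 1322, 1230.3, 1258 and 1649.6 in the flox/+ glands and 2498, 1702, 1474 and 1827 in the flox/flox glands (probe set 10589076, chromosome 9). Flox/flox replicate 1 lay far above the rest, while replicate 3 lay below the highest control, so the genotypes overlapped. Means were 1365 ± 194 and 1875 ± 440 (SD, n = 4), a log2 difference of 0.44 ± 0.15 SE (limma adjusted p = 0.339; exact permutation p = 0.0571). The unadjusted p was under 0.05 in 18 of 18 alternatives, with differences from 0.29 to 0.54.

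Its upstream window (GRCm38.p6, chr9:108661886-108662135, plus strand) is shown for comparison with that of Slc25a33. Capitals mark CCGGAAGT, a site type of ETS factors such as GABP, which begins 79 bases before the start and was in 2.17% of member windows (Slc25a20 alone) and 2.88% of all.
Slc25a20: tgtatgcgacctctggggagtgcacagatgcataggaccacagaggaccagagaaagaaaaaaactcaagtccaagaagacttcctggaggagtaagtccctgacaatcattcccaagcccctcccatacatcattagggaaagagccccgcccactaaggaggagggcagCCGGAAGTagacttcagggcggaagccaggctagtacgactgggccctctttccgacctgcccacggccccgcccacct

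Most other measured genes of fatty acid oxidation differed in the same direction. Of 9 measured genes of the carnitine shuttle and beta-oxidation 8 had differences above 0, against 47.4% of all genes (median 0.25, 0 called). At an unadjusted limma p under 0.05 there were 5, against 4.80% of all genes in that direction. These 5 were Acadm (0.27 ± 0.10 SE), Acadl (0.31 ± 0.13), Hadha (0.29 ± 0.10), Hadhb (0.25 ± 0.10) and Acaa2 (0.43 ± 0.13). They encode acyl-CoA dehydrogenases, the trifunctional protein and a thiolase. Of the carnitine acyltransferases, Cpt2 was at 0.16 ± 0.11, Crat at 0.14 ± 0.11 and Cpt1a, the gene below 0, at -0.09 ± 0.14. Acaa2 read 2487, 2519.6, 2192 and 2788 in flox/+ and 4303, 3410.3, 2748 and 3167 in flox/flox glands. As for Slc25a20, replicate 1 was the highest flox/flox gland and replicate 3 the lowest.

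Brown and beige adipocyte markers differed in the same direction. All 8 had differences above 0, against 47.4% of all genes, with a median of 0.42. At an unadjusted limma p under 0.05 there were 6, against 4.80% of all genes in that direction (0 called). The fatty acid elongase Elovl3 had the largest difference (1.94 ± 0.47 SE). Elovl3 read 191, 58.2, 43.0 and 288 in flox/+ and 567, 457, 292 and 680 in flox/flox glands. Its readings in flox/+ replicates 2 and 3 lay at levels of the dimmest class (up to 124), which cannot be told from background. The summed intensity of the 8 markers was 4844 to 9019 in flox/+ and 7076 to 13003 in flox/flox glands. Ucp1, the uncoupling protein that defines brown and beige fat and a member of the SLC25 family under another symbol, read 2268, 1425, 1195 and 3462 in flox/+ and 4393, 1525, 2662 and 3766 in flox/flox glands. Ucp1 overlapped widely (log2 0.58 ± 0.36 SE, limma adjusted p = 0.629). The mean z-score of the marker list was 1.64 in flox/flox replicate 1 and -1.21 in flox/+ replicate 3, the glands that were also highest and lowest for beta-oxidation (1.504 and -1.261). The part of these adipocytes in the SLC25 differences was not tested. Without flox/flox replicate 1 the difference of Slc25a20 was 0.290 in place of 0.44, and without flox/+ replicate 3 it was 0.401. The number of SLC25 genes at an unadjusted limma p under 0.05 was 11 without the first of these glands and 4 without the other. The shares of all genes were 9.41% and 8.2%.

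Slc25a32, which imports folate or the flavin FAD, read 453, 392, 386 and 452 in the flox/+ glands and 547, 564, 564 and 427 in the flox/flox glands. Flox/flox replicates 1, 2 and 3 were close together and lay above every control, whereas replicate 4 lay among the controls. Means were 421 ± 36.5 and 526 ± 66.2 (SD, n = 4), with a log2 difference of 0.30 ± 0.10 SE (limma adjusted p = 0.320; exact permutation p = 0.0857).

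Slc25a39, an importer of glutathione, read 1257, 1154, 1201 and 1215 in flox/+ and 1394, 1403, 1526 and 1238 in flox/flox glands. Again replicate 4 was the flox/flox gland within the control range. The log2 difference was 0.20 ± 0.07 SE (limma adjusted p = 0.395), and its unadjusted p was above 0.05 without flox/+ replicate 2 or flox/flox replicate 3. Its close relative Slc25a40 had a difference of 0.08 ± 0.09 at its brighter probe set and 0.13 ± 0.13 at the other. Whether the latter reads a near-identical copy of Slc25a40 was not checked.

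Slc25a16, a carrier linked to the import of coenzyme A, read 412, 397, 356 and 406 in flox/+ and 454, 520.2, 442 and 429.99 in flox/flox glands. Its genotypes did not overlap, although the lowest flox/flox gland was only slightly above the highest control. The log2 difference was 0.22 ± 0.08 SE (limma adjusted p = 0.362; exact permutation p = 0.0286), and its unadjusted p was above 0.05 without flox/+ replicate 3. Slc25a42, another coenzyme A carrier, had a log2 difference of 0.08 ± 0.13. In all 10 of the 11 measured carriers of carnitine, cofactors and nucleotides had differences above 0 (median 0.13), the exception being the S-adenosylmethionine carrier Slc25a26 at -0.03.

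**Figure D3:**
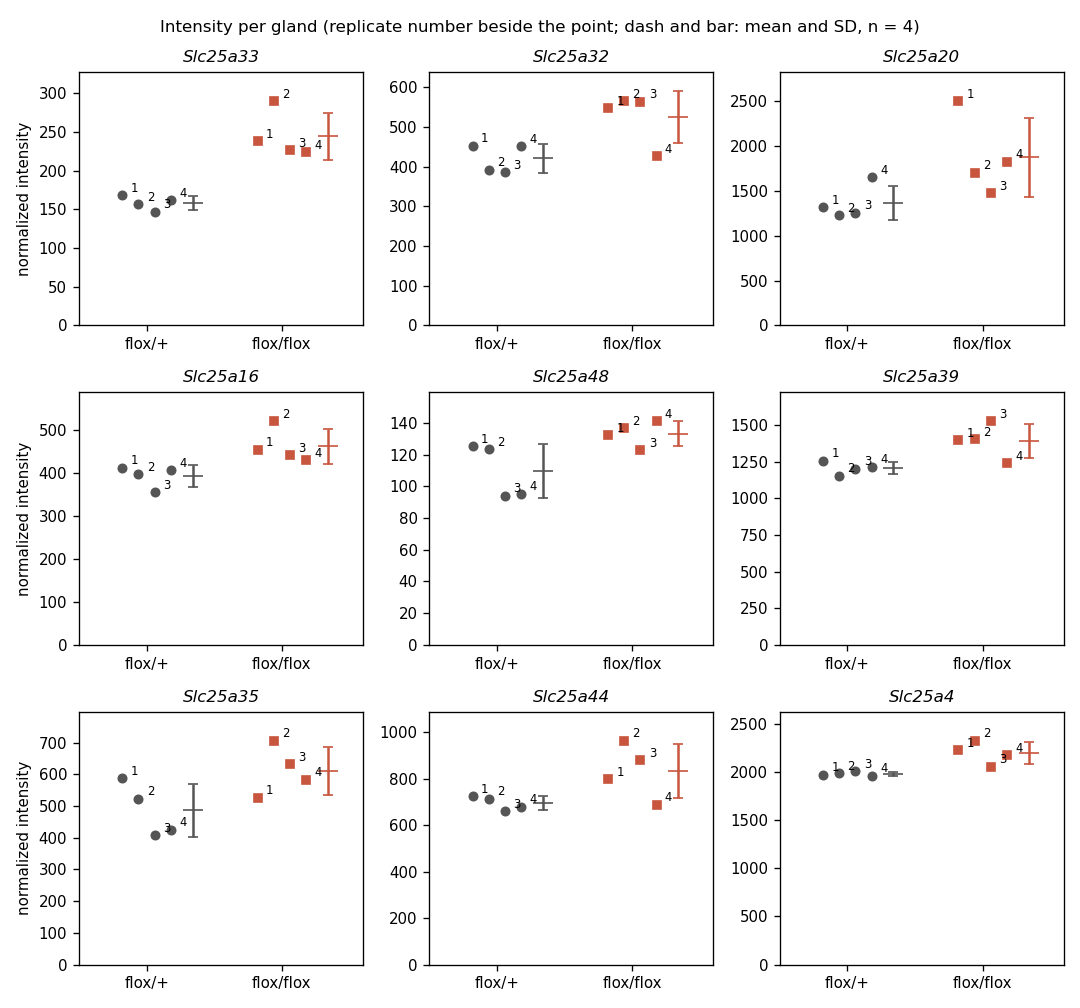
Normalized intensity (linear axis from 0) in each gland for the 9 SLC25 genes with an unadjusted limma p under 0.05, with the replicate number beside each point and the mean and SD of 4 glands as a dash and bar. The genotypes are apart for Slc25a33, Slc25a16 and Slc25a4, and share part of their range for the other 6 genes.

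Slc25a44, which carries branched-chain amino acids and is known from brown fat, was the amino acid carrier with the largest difference. It read 725, 714, 661 and 679 in flox/+ and 799, 963, 879.6 and 688 in flox/flox glands, with replicate 4 among the controls. The log2 difference was 0.25 ± 0.10 SE (limma adjusted p = 0.425). The unadjusted p held in 14 of 18 alternatives and was above 0.05 without flox/+ replicate 3 or 4 or flox/flox replicate 2 or 3. Of the other amino acid carriers, the glutamate carrier Slc25a22 was at 0.12 ± 0.08, the ornithine carrier Slc25a15 at 0.10 ± 0.10 and the glutamate carrier Slc25a18 at -0.10 ± 0.09. Urea cycle and ornithine enzymes, measured in 7 genes, had a median of -0.08, with 2 at an unadjusted limma p under 0.05, the arginases Arg1 (0.40 ± 0.13 SE) and Arg2 (0.52 ± 0.20).

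The adenine nucleotide translocases, which exchange ADP for ATP, differed little. Slc25a4, the isoform of heart and muscle that other tissues express too, read 1972, 1986, 2007 and 1960.4 in flox/+ and 2224, 2325, 2055 and 2175 in flox/flox glands. Its controls lay within 0.03 log2 units of each other, and all 4 flox/flox glands were above them. The difference was small, 1.11-fold or 0.15 ± 0.06 on the log2 scale (SE; limma adjusted p = 0.466; exact permutation p = 0.0286), and its unadjusted p was under 0.05 in 1 of the 8 fits that left out a gland. Skeletal muscle markers leaned to the flox/+ side, and the part of muscle in the Slc25a4 difference was not tested. Of 10 such genes 9 had differences below 0, against 10488 of all 19938 genes. Tnnt3 alone had an unadjusted limma p under 0.05 (-0.23 ± 0.09 SE). Some of these markers were dim, such as Mylpf with means of 67.7 in flox/+ and 65.7 in flox/flox glands. The summed intensity of the 10 genes was 1943 to 2239.9 in flox/+ and 1775 to 1958 in flox/flox glands.

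Slc25a5, the widely expressed translocase, read 2299.5 ± 70.03 in flox/+ and 2409.7 ± 119 in flox/flox glands (SD, n = 4), with a log2 difference of 0.07 ± 0.06 SE. The annotation gives Slc25a5 another 2 probe sets, at 0.04 ± 0.07 and 0.07 ± 0.06, and near-identical copies of this gene cannot be told apart by them. Slc25a3, the phosphate carrier, read 1646 ± 55.9 and 1730 ± 104 (0.07 ± 0.07). Slc25a31, the translocase of germ cells, had the lowest difference of the family and read 48.9, 53.7, 62.8 and 52.6 in flox/+ and 40.9, 47.5, 45.0 and 54.4 in flox/flox glands, near the bottom of the scale (-0.16 ± 0.09 SE, limma adjusted p = 0.550). The calcium-regulated ATP-Mg and phosphate carriers Slc25a23, Slc25a24, Slc25a25 and Slc25a41 had differences of 0.13, 0.11, -0.04 and 0.06. ATP synthase, the enzyme that these carriers supply, had 9 of 12 measured subunits above 0 (median 0.11), with 2 at an unadjusted limma p under 0.05, Atp5d (0.20 ± 0.08 SE) and Atp5pb (0.19 ± 0.07).

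All 6 measured carriers of di- and tricarboxylates had differences above 0 (median 0.15), and 0 of them had an unadjusted limma p under 0.05. Slc25a1, which exports citrate for fatty acid and sterol synthesis, read 5955, 4749.5, 3998 and 4511 in flox/+ and 4663, 5955, 6465 and 5451 in flox/flox glands. Slc25a10, the dicarboxylate carrier, read 1887, 1562, 1259 and 1686 in flox/+ and 1523, 2534.5, 1998 and 1725.5 in flox/flox glands. Both had their lowest reading in flox/+ replicate 3, a high one in flox/+ replicate 1 and a low one in flox/flox replicate 1, and the spread within a genotype was wide (log2 differences 0.23 ± 0.13 and 0.27 ± 0.16 SE; limma adjusted p = 0.571 and 0.599). Both depended on single glands. The difference of Slc25a1 was 0.151 without flox/+ replicate 3 and 0.322 without flox/flox replicate 1. That of Slc25a10 was 0.161 without flox/+ replicate 3, 0.135 without flox/flox replicate 2 and 0.378 without flox/flox replicate 1. The unadjusted limma p was under 0.05 for both without flox/flox replicate 1, and for Slc25a1 without flox/+ replicate 1. Genes for making and using citrate lay the same way in 5 of 6 cases (median 0.20), with citrate synthase Cs at 0.27 ± 0.09 and malic enzyme Me1 at 0.31 ± 0.12, both with an unadjusted limma p under 0.05.

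The malate-aspartate shuttle uses Slc25a11, for oxoglutarate, with Slc25a12 and Slc25a13, for aspartate and glutamate. Their differences were 0.13 ± 0.08, 0.04 ± 0.06 and 0.16 ± 0.09 SE. Of 6 shuttle enzymes 3 were higher at an unadjusted limma p under 0.05, against 4.80% of all genes. They were the malate dehydrogenase Mdh2 (0.18 ± 0.08 SE) and both enzymes of the glycerol phosphate shuttle. Gpd1, in the cytosol, read 5772, 4899.9, 4393 and 5401 in flox/+ and 7074, 6541, 6387 and 6488 in flox/flox glands. Gpd2, in the mitochondrion, read 1818, 1631, 1171 and 1560.2 in flox/+ and 2487, 2337, 1900.4 and 2162 in flox/flox glands. For both the genotypes did not overlap, which held for 2.73% of all genes in this direction. The log2 differences were 0.38 ± 0.09 and 0.53 ± 0.13 (limma adjusted p = 0.191 and 0.220).

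The mitoferrins, which import iron for haem and iron-sulphur clusters, showed small differences. Slc25a28 read 543 ± 48.5 in flox/+ and 566 ± 17.2 in flox/flox glands (SD, n = 4; 0.06 ± 0.07 SE), and the erythroid form Slc25a37 was at 0.07 ± 0.09. Genes of mitochondrial iron and haem, 8 measured, had a median of 0.10 with 0 at an unadjusted limma p under 0.05, and Alas1 (0.15 ± 0.07 SE) and Ftmt (-0.15 ± 0.08) had the smallest p. Erythroid markers, 4 measured, had a median of 0.02.

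Among relatives of the uncoupling proteins, Slc25a30 read 392 ± 49.4 in flox/+ and 419 ± 18.8 in flox/flox glands (SD, n = 4; 0.10 ± 0.09 SE), Slc25a27 was at 0.11 ± 0.09 and Slc25a14 at -0.03 ± 0.07. Of the family members that carry other symbols, Ucp3 was at 0.06 ± 0.16, Mtch1 at 0.07 ± 0.08 and Mtch2, an insertase of the outer membrane, at 0.22 ± 0.08, the last with an unadjusted limma p under 0.05. Whether the Mtch2 probe set reads a near-identical copy of the gene was not checked.

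Of 9 carriers with other or unassigned roles 5 had differences above 0, with a median of 0.02. Slc25a35 read 587, 523, 409 and 425 in flox/+ and 526, 706, 631 and 583 in flox/flox glands, with 1 control inside the flox/flox range and another just below it (0.33 ± 0.12 SE, limma adjusted p = 0.402). Slc25a48, linked to choline import, read 125, 123, 94.1 and 95.3 in flox/+ and 132, 137, 123 and 141 in flox/flox glands (0.26 ± 0.10 SE, limma adjusted p = 0.394). For both genes flox/+ replicates 3 and 4 were the low glands, and the unadjusted p was above 0.05 when either was left out. It was also above 0.05 for Slc25a35 without flox/flox replicate 2 or 3, and for Slc25a48 without flox/flox replicate 4. Slc25a46, a protein of the outer membrane, read 771 ± 35.2 in flox/+ and 795 ± 41.1 in flox/flox glands (SD, n = 4), Slc25a45 324 ± 12.3 and 314 ± 18.9, and Slc25a54 33.5 ± 4.03 and 32.1 ± 3.11, the last near the bottom of the scale.

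The mitochondrial pyruvate carrier and the outer membrane channels, which belong to other families but feed the same traffic, were measured in 4 genes. All 4 read higher in every flox/flox gland than in any control, against 2.73% of all genes. Whether their probe sets read near-identical copies of these genes was not checked. An unadjusted limma p under 0.05 was reached by 3, against 4.80% of all genes in that direction (0 called, median 0.18). Mpc1, a subunit of the pyruvate carrier, read 2424, 1891, 1702 and 2137 in flox/+ and 2512, 2548, 2857 and 2637 in flox/flox glands, a log2 difference of 0.38 ± 0.10 SE (limma adjusted p = 0.250). Vdac2, a channel of the outer membrane, read 2329, 2223, 2146 and 2153 in flox/+ and 2679, 2614, 2556 and 2523 in flox/flox glands (0.23 ± 0.06 SE, limma adjusted p = 0.246). Vdac1 was at 0.14 ± 0.06 and Vdac3 at 0.14 ± 0.06. Of 4 calcium uniporter and exchanger genes 1, Letm1 (0.33 ± 0.09), and of 5 sideroflexins 0 had an unadjusted limma p under 0.05, Sfxn2 (-0.16 ± 0.09) and Sfxn4 (-0.21 ± 0.12) having the smallest p of the latter. Among 10 regulators of mitochondrial content the median was 0.09, with Ppargc1a (0.39 ± 0.15) and Tfb2m (0.19 ± 0.08) at an unadjusted limma p under 0.05. Ppargc1a is also among the brown and beige markers counted above, so these lists are not separate.

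Across glands the SLC25 genes as a group ran from flox/+ replicate 2 (mean z-score -0.48) to flox/flox replicate 2 (0.46). The order was -0.48, -0.36, -0.23 and -0.09 for flox/+ replicates 2, 3, 1 and 4, then -0.01, 0.285, 0.42 and 0.46 for flox/flox replicates 4, 1, 3 and 2. The summed intensity of the 46 genes was 27218 to 30670 in flox/+ and 30838 to 33972 in flox/flox glands. The genotypes were adjacent and not far apart, flox/flox replicate 4 lying next to flox/+ replicate 4. Flox/flox replicate 4 had the highest epithelial score (1.41), and flox/flox replicate 2 the highest white adipocyte score (1.16) and the lowest fibroblast score (-1.36). Neither list followed the genotypes, with medians of -0.01 over 7 epithelial and -0.01 over 7 white adipocyte genes and 0 at an unadjusted limma p under 0.05 in both. Fibroblast and matrix genes had a median of -0.22 over 8 genes, with Col1a1 and Col3a1 at an unadjusted limma p under 0.05, macrophage genes 0.17 over 8, and B and T cell genes -0.28 over 7. The part of these cell types in the SLC25 differences was not tested.

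**Figure D4:**
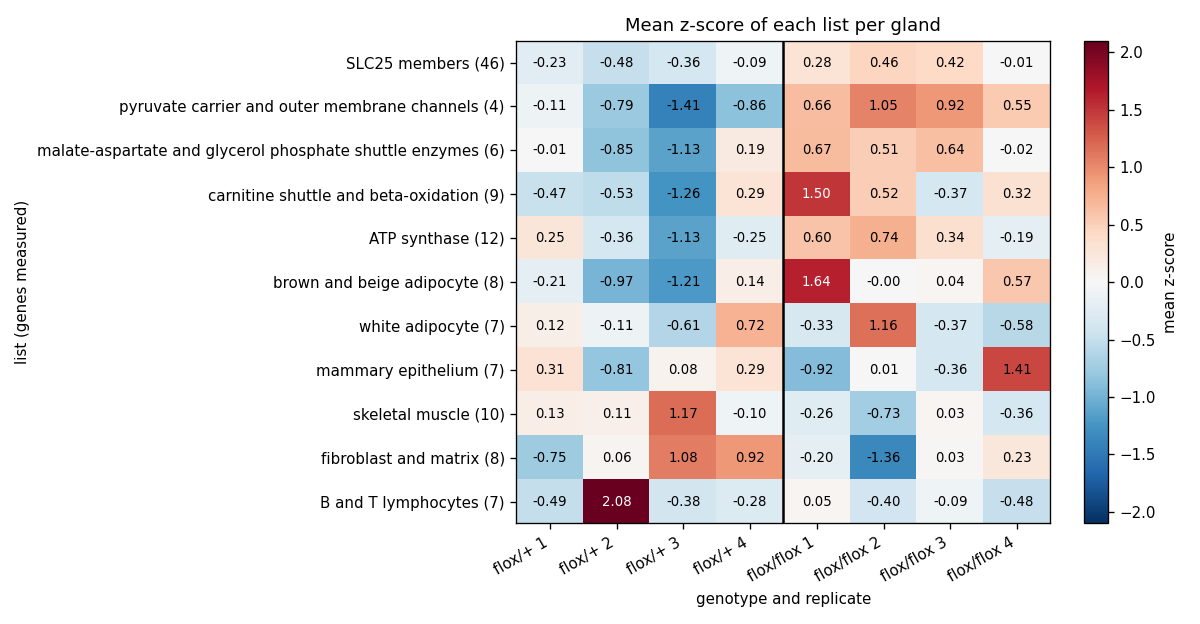
Mean z-score per gland (columns, by genotype and replicate) of the SLC25 genes and of related gene and marker lists (rows, with the number of genes measured), with red above and blue below the mean of 8 glands. The SLC25 row is below 0 in the 4 flox/+ glands and between -0.01 and 0.46 in the flox/flox glands, while the brown and beige row peaks in flox/flox replicate 1 (1.64).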

How the data were processed

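Total RNA of 8 glands, extracted with a Qiagen RNeasy Mini kit per the labels' protocols, was hybridised to 1 array each. The deposited table holds linear intensity values. The submitters' processing notes name PLIER and Affymetrix Expression Console 1.0 as the authors' software, and how background was corrected or arrays normalized is not given in the sources used here. Of 35557 probe sets 21789 had 1 symbol in the platform annotation, 1621 several and 12147 none, and the first kind gave 19938 genes. An offset of 16 was added to the deposited values, and their log2 was quantile normalized over all probe sets, because the arrays' 10th percentiles spread by 0.245, above a tolerance of 0.1. The genotypes were fitted with limma 3.58.1 in R 4.3.3 (lmFit, eBayes). Samples were grouped by the titles. Nothing in the labels says that equal replicate numbers share a litter or day, and they did not pair glands in the fit. The fit was run on simulated data, independent normal values with added changes mostly larger than the SLC25 differences. That run checks the code and not the results given here. Named members were those with an adjusted or unadjusted p under 0.05, without overlap, with the 8 highest levels, the 5 largest differences either way, the highest level of a role, or probe sets of opposite sign; other members appear by role. Related lists name genes with an unadjusted p under 0.05 or the 2 with the smallest p, and some others for context. Members, lists and rules were chosen with earlier results of these data known, so lists are described and not tested. Motifs and the promoters shown were chosen after the differences were seen. Alternatives were the deposited values without the quantile step, median centring, an offset of 1 or 64, leaving out the dimmest 1 in 3 genes, testing all probe sets, averaging probe sets, trend and robust options, array weights, a replicate block and leaving out each gland.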

Additional observations from a re-analysis of the deposited data

Results flagged for a closer look

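In 7 of the 94 groups of 4 glands examined (46 SLC25 genes and Sox9, in 2 genotypes), 1 gland lay far from the other 3 by Dixon's criterion, which by chance flags about 1 group in 20. Flox/flox replicate 4 was low for Slc25a11 (772, others 885 to 889) and for Slc25a32 (427, others 547 to 564). Flox/+ replicate 4 was high for Slc25a45 (342, others 317 to 319.5) and for Slc25a51, the NAD carrier (987, others 812 to 836). Flox/flox replicate 2 was low for Slc25a45 (287, others 321 to 329). Slc25a41 was high in flox/+ replicate 3 (91.1, others 80.2 to 81.3) and in flox/flox replicate 1 (96.8, others 84.2 to 84.8).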

How the results depend on the processing

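The number of SLC25 genes with a limma adjusted p under 0.05 was 1, Slc25a33, with an offset of 64 (difference 0.47) and with trend and robust options (0.57), and 0 in the other alternatives. With 1 gland left out, the count at an unadjusted limma p under 0.05 was 4 to 11, against 8.2% to 10.7% of all genes. The lowest count, 4 without flox/+ replicate 3, was a share near the 8.2% of all genes there. All members so counted were higher in flox/flox, except without flox/flox replicate 4. There 8 of 9 were higher and Slc25a31 was lower (-0.220). In the fits with 1 gland left out, the count above 0 was 34 to 39, the median 0.07 to 0.09 and Sox9's difference -0.38 to -0.28. With the replicate block 8 members had an unadjusted limma p under 0.05, against 9.46% of all genes. Slc25a4 was lost there, and Slc25a33 had a limma adjusted p of 0.0801. The deviations of equally numbered glands correlated at -0.20, 0.06, 0.21 and -0.09, so the numbers were not taken as pairs. Signs turned for 3 named genes with small differences: Slc25a36 with averaged probe sets (-0.05); Slc25a54 with median centring (0.007) and deposited values (0.008), and from -0.080 to 0.013 with a gland left out (above 0 without flox/+ replicate 4, 0.013, and flox/flox replicate 2, 0.006); and Slc25a25 from -0.113 to 0.029 with a gland left out (above 0 without flox/+ replicate 1, 0.005, and flox/flox replicate 4, 0.029). The cause was not tested. Counts of all genes called moved from 8 to between 1 and 21. The table holds no detection calls, so dim members such as Slc25a31 and Slc25a54 cannot be told from background.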
